A study of Homo sapiens with 16 samples.

Results

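The C/EBP and KLF transcription factors are described here through 10 genes, CEBPA, CEBPB, CEBPD, CEBPG, KLF4, KLF5, KLF6, KLF9, KLF10 and KLF13, on 16 Illumina bead arrays of LNCaP-1F5 cells. Every probe annotated to these symbols was taken, which gave 13 of the 48794 probes on the arrays for DHT and 13 of the 47231 on those for DEX. LNCaP-1F5 is an established prostate cancer line, made from LNCaP by adding a rat glucocorticoid receptor. Parental cells and cells given a pool of siRNAs against the pioneer factor FOXA1 (titled siFoxA1) were kept for 3 days in charcoal-stripped medium and then exposed for 24 hours. In the DHT set the exposure was vehicle or 100 nM of the androgen 5α-dihydrotestosterone (DHT), and in the DEX set vehicle or 100 nM of the synthetic glucocorticoid dexamethasone (DEX). Each set holds 8 arrays as 4 labelled groups of 2 replicates: vehicle parental, hormone parental, vehicle siFoxA1 and hormone siFoxA1. No non-targeting siRNA is named for the parental cells. The study asked which genes respond to each hormone with and without FOXA1.

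C/EBP proteins are basic leucine zipper factors that bind DNA as dimers. C/EBPα (CEBPA) is known for growth arrest and differentiation, C/EBPβ (CEBPB) and C/EBPδ (CEBPD) for fast transcriptional responses to stress, cytokines and glucocorticoids, and C/EBPγ (CEBPG) as a dimer partner that takes part in amino acid and redox stress responses. KLF proteins carry 3 zinc fingers at their C-terminus that read GC-rich and CACCC sequences, and different members activate or repress transcription. KLF9 and CEBPD are textbook glucocorticoid-responsive genes, and in prostate cells both families are studied beside the androgen receptor.

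FOXA1, the siRNA target, did not follow the siFoxA1 title in the DHT set. Its log2 level there was 13.54 to 13.68 on the 4 vehicle-titled arrays and 12.24 to 12.37 on the 4 DHT-titled arrays, whatever the siRNA title. For DEX, FOXA1 was lower on siFoxA1-titled arrays and also lower on arrays of replicate number 2: 13.36 and 13.37 on parental arrays of replicate 1, 12.09 and 12.17 on those of replicate 2, 12.65 and 12.67 on siFoxA1 arrays of replicate 1, and 10.84 on both siFoxA1 arrays of replicate 2. FKBP5, a classical steroid receptor target, separated by replicate number in the DHT set (7.76 to 8.22 in replicate 1, 12.14 to 13.16 in replicate 2) and by the siFoxA1 title in the DEX set (9.21 to 9.39 against 13.80 to 13.89). Over all kept probes the nearest array shared the replicate number for 8 of 8 arrays and the labelled group for 0 of 8, in both sets. Of the other titles, it shared the hormone title for 8 of 8 DHT-set arrays and the siRNA title for 0 of 8. For DEX-set arrays this was reversed, with the siRNA title shared for 8 of 8 and the hormone title for 0 of 8. The arrays therefore go against their labels; none was relabelled, all names below are titles, and each direction is one between titles. For this reason the differences were taken both between labelled groups and between pairs of arrays that share a replicate number.

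Per array the mean bead signal was 390.5 to 528.1 (DHT set) and 597.4 to 683.1 (DEX set), and 23.0% to 26.4% and 33.7% to 36.3% of probes were detected (detection p under 0.01). The luminal epithelial markers KRT8, KRT18, EPCAM and HOXB13 were detected on every array. Of 11 basal, stromal, blood and endothelial markers with a probe, 7 were detected on no array of the DHT set and 7 on none of the DEX set, among them KRT5, KRT14, PTPRC and CD3E in both. In each set 2 of them were detected on 2 or more arrays: CD68 and VWF with DHT, CD68 and COL1A1 with DEX. VWF was detected on 2 arrays (up to 7.17) and COL1A1 on all 8 (6.09 to 7.17). The highest probe of CD68, a lysosomal protein best known from macrophages, ran from 6.11 to 9.91 (DHT set) and from 6.97 to 10.58 (DEX set). The log2 of the summed level of these 11 markers was 8.63 to 9.09 on vehicle and 9.42 to 10.36 on DHT titles, and 8.80 to 9.88 on parental and 9.97 to 10.88 on siFoxA1 titles of the DEX set. This sum includes levels of markers detected on no array, and CD68 reached the highest level of the 11, so it is no measure of a cell type. The same sum of the luminal markers was 13.31 to 14.04 on vehicle and 13.65 to 13.81 on DHT titles. In the DEX set it was 13.49 to 13.64 on parental and 13.87 to 14.04 on siFoxA1 titles. The part of either sum in the differences below was not tested. Total RNA of a culture was measured, so fewer cells of a kind and less RNA per cell cannot be told apart.

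A probe was kept for tests when detected on at least 2 of the 8 arrays of a set. By this filter 8 of the 10 genes were measured with DHT and 9 with DEX. KLF5, which marks proliferating epithelium, was detected on no array of either set by its 1 probe. KLF10, a TGF-β-inducible repressor, was detected on no DHT-set array by any of its 3 probes. With DEX 1 of the 3 was detected on 3 arrays, vehicle parental 2 (6.14), DEX parental 2 (6.03) and DEX siFoxA1 2 (5.84). The other 8 genes had 1 probe each, except KLF4 with 2. Levels are log2 intensities after background correction and quantile normalization within a set, so they are compared for 1 probe between arrays of 1 set only. Lists of 4 pairs below follow the order vehicle parental, hormone parental, vehicle siFoxA1, hormone siFoxA1, with replicates 1 and 2 of each.

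**Figure D1:**
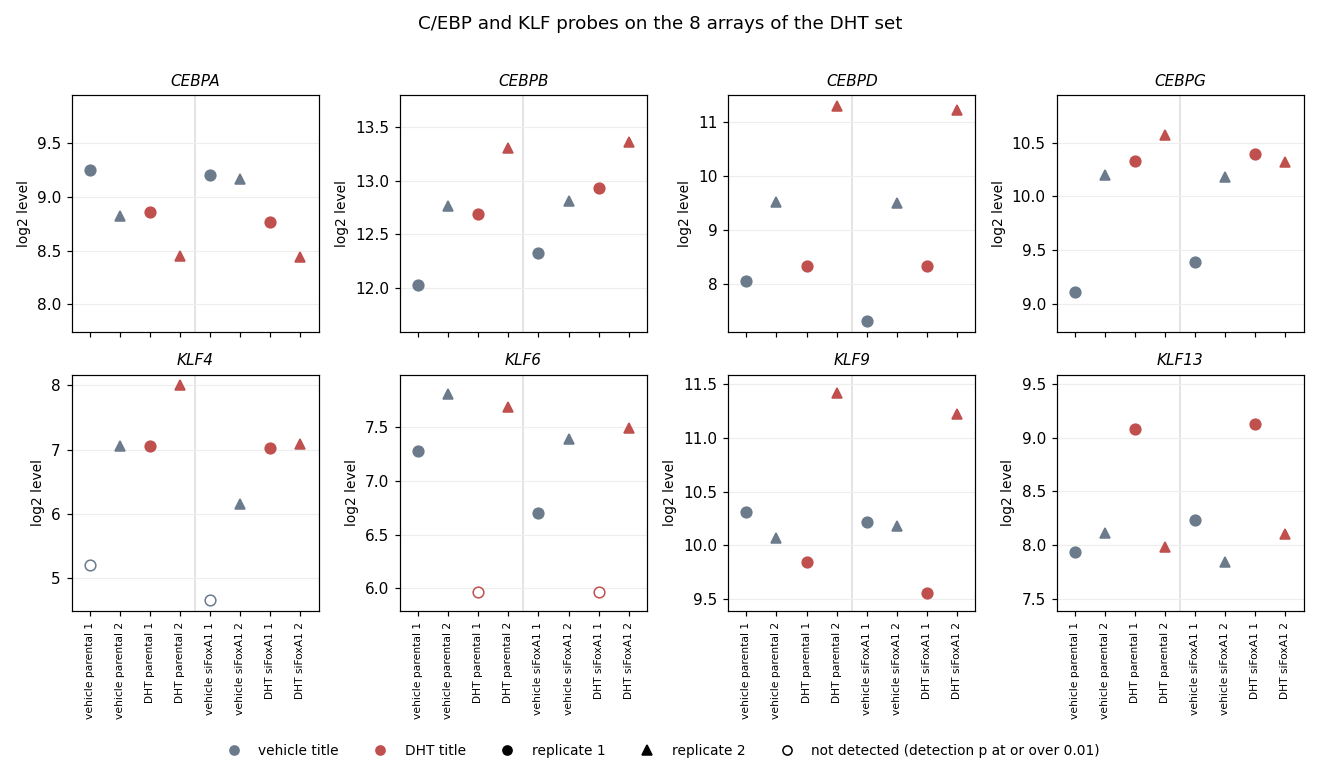
Log2 level (y axis) of the 8 measured genes on the 8 arrays of the DHT set (x axis, title and replicate number), 1 point per array, circles for replicate 1 and triangles for replicate 2, red for DHT titles and open for arrays where the probe was not detected. CEBPD is highest on the DHT-titled arrays of replicate 2 (11.30 and 11.23), whereas KLF13 is highest on those of replicate 1 (9.08 and 9.13).

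**Figure D2:**
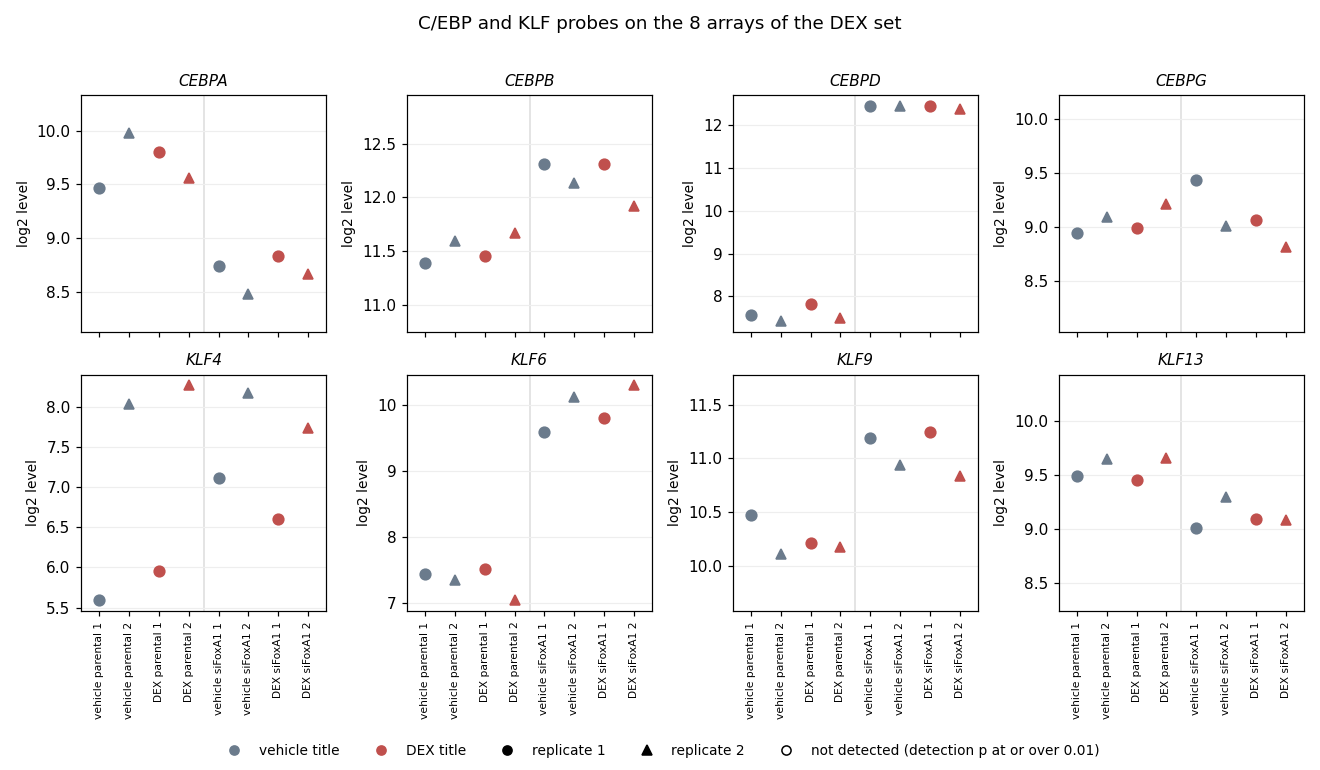
Log2 level (y axis) of the same 8 genes on the 8 arrays of the DEX set (x axis), drawn in the same way, with red for DEX titles and KLF4 by its probe of highest mean. CEBPD lies between 7.43 and 7.83 on the 4 parental arrays and between 12.37 and 12.44 on the 4 siFoxA1 arrays.

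CEBPD differed most of the measured C/EBP genes. Its DHT-set levels were 8.05 and 9.52, 8.34 and 11.30, 7.32 and 9.51, and 8.34 and 11.23. All 4 arrays of replicate 2 lay above all 4 of replicate 1, and within replicate 2 the DHT titles lay above the vehicle titles. Between DHT and vehicle titles CEBPD was higher by 0.66 ± 0.18 (SE) on the log2 scale in replicate 1 (adjusted p = 0.00943) and by 1.75 ± 0.18 in replicate 2 (adjusted p = 2.39e-08). The difference between replicate 2 and replicate 1 was 1.83 ± 0.18 on vehicle titles (adjusted p = 1.49e-08) and 2.92 ± 0.18 on DHT titles (7.58-fold, adjusted p = 1.84e-12). The replicate 1 difference between hormone titles was not called without the vehicle siFoxA1 array (0.30) or the DHT siFoxA1 array (0.52) of replicate 1. Nor was it called with median scaling (0.42, adjusted p = 0.123), no filter on dim probes (adjusted p = 0.0577) or no variance trend (adjusted p = 0.0898).

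CEBPD was at 7.56 and 7.43, 7.83 and 7.50, 12.44 and 12.43, and 12.43 and 12.37. The 4 siFoxA1-titled arrays were high and the 4 parental ones low, with no overlap and a spread below 0.5 within either side. The siFoxA1 titles were 26.8-fold higher in replicate 1 (4.74 ± 0.12, adjusted p = 7.67e-17) and 30.7-fold higher in replicate 2 (4.94 ± 0.12, adjusted p = 4.25e-17). DEX and vehicle titles differed by 0.06 ± 0.09 over all 8 arrays (adjusted p = 1). FKBP5 divided the arrays in the same way in each set. With DHT it was higher in replicate 2 by 4.08 ± 0.15 on vehicle and 5.08 ± 0.15 on DHT titles.

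**Figure D3:**
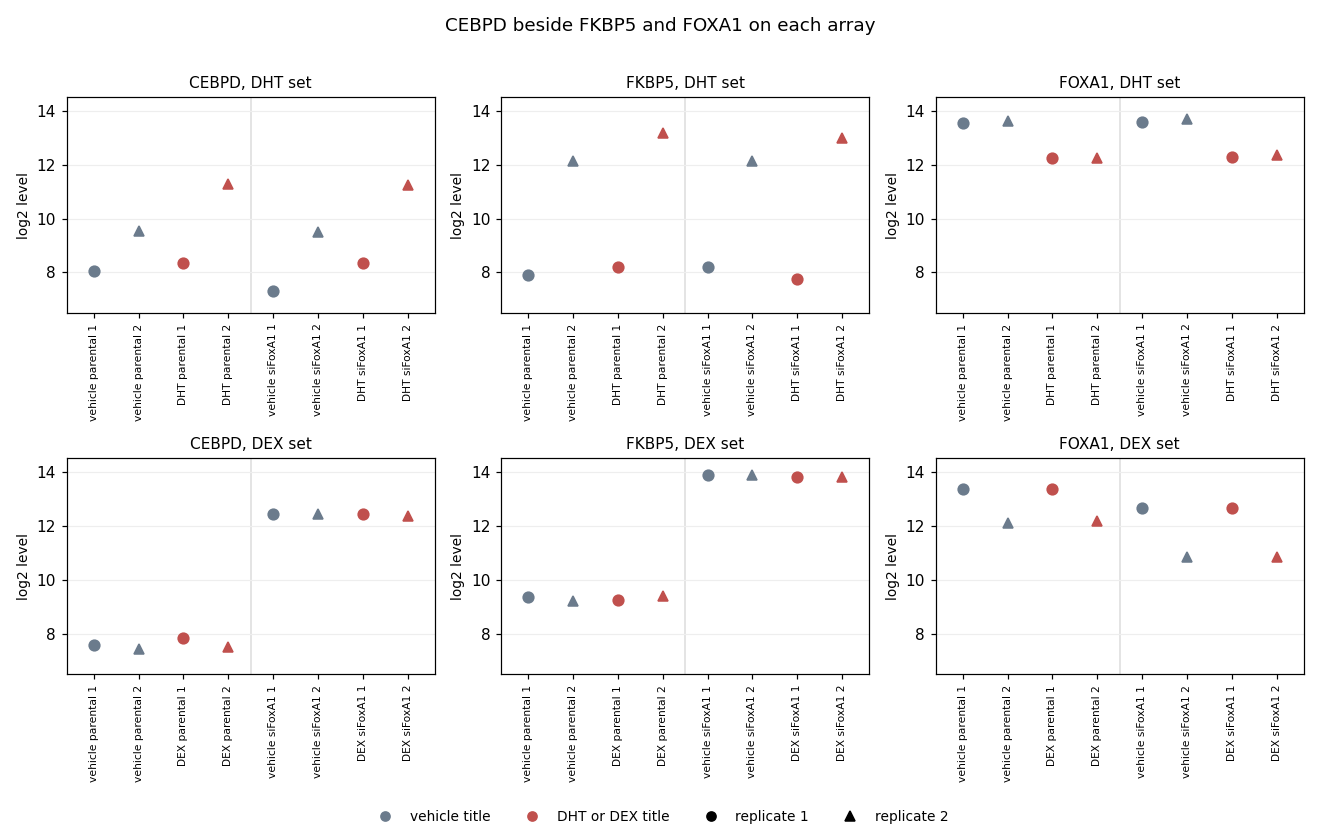
Log2 level (y axis, 1 scale for all panels) of CEBPD, FKBP5 and FOXA1 by their probes of highest mean on each array (x axis) of the DHT set (top) and the DEX set (bottom), 1 point per array. CEBPD and FKBP5 are high on arrays of replicate 2 (top) and on siFoxA1 titles (bottom), while FOXA1 drops by hormone title in the former and by siFoxA1 title and replicate number in the latter.

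CEBPB was called in the same 4 comparisons of DHT-set pairs as CEBPD, in smaller steps. Its DHT-set levels were 12.03 and 12.76, 12.69 and 13.30, 12.33 and 12.81, and 12.93 and 13.36. Within each replicate number the DHT titles were above the vehicle titles, by 0.63 ± 0.11 in replicate 1 (adjusted p = 0.000143) and 0.54 ± 0.11 in replicate 2 (adjusted p = 0.000597). Replicate 2 was above replicate 1 by 0.61 ± 0.11 on vehicle titles (adjusted p = 0.000279) and 0.52 ± 0.11 on DHT titles (adjusted p = 0.0012). The interaction of these was -0.09 ± 0.16 (adjusted p = 0.834). With DEX it read 11.39 and 11.59, 11.45 and 11.67, 12.31 and 12.13, and 12.31 and 11.92, with all siFoxA1 arrays above all parental ones. The siFoxA1 titles were higher by 0.89 ± 0.10 in replicate 1 (adjusted p = 1.33e-06) and 0.39 ± 0.10 in replicate 2 (adjusted p = 0.00532). The replicate 2 call was lost without the vehicle parental array 2 (0.33) or the vehicle siFoxA1 array 2 (0.27), and with no variance trend (adjusted p = 0.0857). On siFoxA1 titles replicate 2 lay 0.29 below replicate 1, a log2 difference of -0.29 ± 0.10 (adjusted p = 0.049), which 5 of 8 single-array omissions ended. That call was also lost with no background correction, median scaling, the authors' table, no filter on dim probes or no variance trend.

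CEBPA was lower on the siFoxA1 titles of the DEX set, where CEBPD and CEBPB were higher. Its DEX-set levels were 9.47 and 9.98, 9.80 and 9.56, 8.74 and 8.48, and 8.83 and 8.67, so that every siFoxA1 array was below every parental one. The log2 difference was -0.85 ± 0.16 in replicate 1 (adjusted p = 0.00047) and -1.19 ± 0.16 in replicate 2 (2.29-fold lower, adjusted p = 8.5e-06). Its DHT-set levels were 9.25 and 8.82, 8.86 and 8.45, 9.20 and 9.17, and 8.77 and 8.44. Here DHT titles were lower than vehicle titles by a log2 difference of -0.55 ± 0.17 in replicate 2 (adjusted p = 0.0183). In replicate 1 the difference was -0.41 ± 0.17 (adjusted p = 0.101). The replicate 2 call was lost without the DHT parental array 2 (-0.59), the vehicle siFoxA1 array 2 (-0.35) or the DHT siFoxA1 array 2 (-0.51). It was also lost with no filter on dim probes (adjusted p = 0.0979) and with no variance trend (adjusted p = 0.0592). Median scaling brought replicate 1 past the threshold (-0.62, adjusted p = 0.0191).

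CEBPG was low on 2 arrays of the DHT set, the vehicle titles of replicate 1. Its levels in that set were 9.11 and 10.20, 10.33 and 10.57, 9.39 and 10.18, and 10.39 and 10.32. In replicate 1 the DHT titles were 2.16-fold higher (1.11 ± 0.15, adjusted p = 2.79e-06), and on vehicle titles replicate 2 exceeded replicate 1 by 0.94 ± 0.15 (adjusted p = 3.52e-05). The other DHT-set pairs differed by 0.26 ± 0.15 (hormone titles, replicate 2, adjusted p = 0.228) and 0.09 ± 0.15 (replicates, DHT titles, adjusted p = 0.747). With DEX, CEBPG kept to 8.81 to 9.44 and no comparison was called; siFoxA1 minus parental titles gave 0.29 ± 0.15 in replicate 1 (adjusted p = 0.17) and -0.24 ± 0.15 in replicate 2 (adjusted p = 0.248).

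KLF6, a ubiquitously expressed factor induced by growth stimuli and known as a candidate tumour suppressor in prostate, differed between the siFoxA1 and parental titles of the DEX set. Its levels were 7.44 and 7.34, 7.51 and 7.04, 9.58 and 10.12, and 9.79 and 10.29, every siFoxA1 array lying above every parental one. The siFoxA1 titles were 4.64-fold higher in replicate 1 (2.21 ± 0.16, adjusted p = 1.47e-09) and 8.07-fold higher in replicate 2 (3.01 ± 0.16, adjusted p = 9.71e-12). The difference of these differences was 0.80 ± 0.23 (adjusted p = 0.0568). It was called with no background correction (0.65, adjusted p = 0.035) and median scaling (0.90, adjusted p = 0.0337). It was also called with detection on all 8 arrays, with 1 probe a gene and without the additive term (highest adjusted p = 0.0482). On siFoxA1 titles replicate 2 was above replicate 1 by 0.52 (adjusted p = 0.0266). Leaving out any siFoxA1 array ended that call, as did median scaling, no filter on dim probes or no variance trend. With DHT, KLF6 was not detected on the 2 DHT-titled arrays of replicate 1 and read 7.28 and 7.81, 5.97 and 7.69, 6.70 and 7.39, and 5.97 and 7.49. DHT titles of replicate 1 were therefore at least 1.80-fold lower than vehicle titles (adjusted p = 0.003). On DHT titles replicate 2 was at least 2.73-fold higher than replicate 1 (adjusted p = 1.3e-05). In replicate 2 the hormone titles differed by -0.01 ± 0.24 (adjusted p = 0.985). Leaving out the vehicle parental array 1 (-0.84, adjusted p = 0.0908) or the DHT parental array 1 (-0.83, adjusted p = 0.0754) ended the replicate 1 call.

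KLF9, a repressor induced by glucocorticoid and thyroid hormone, moved in opposite directions in the 2 replicate numbers of the DHT set. There its levels were 10.31 and 10.07, 9.85 and 11.42, 10.22 and 10.18, and 9.56 and 11.22. The DHT titles were the lowest pair in replicate 1, by a log2 difference of -0.56 ± 0.14 (adjusted p = 0.00452), and the highest pair in replicate 2, by 1.19 ± 0.14 (2.28-fold, adjusted p = 2.57e-07). The interaction was 1.76 ± 0.20 (adjusted p = 1.17e-06, with 6.17% of probes called), and it was called under all the settings and omissions tried. The replicate 1 decrease was not called without the DHT siFoxA1 array 1 (-0.45) or with no variance trend (-0.56, adjusted p = 0.0593). Its DEX-set levels were 10.47 and 10.11, 10.21 and 10.18, 11.19 and 10.94, and 11.25 and 10.84, with siFoxA1 above parental on every array. These titles differed by 0.88 ± 0.11 in replicate 1 (adjusted p = 7.87e-06) and 0.74 ± 0.11 in replicate 2 (adjusted p = 4.17e-05). Within siFoxA1 titles replicate 2 was lower, at -0.33 ± 0.11 (adjusted p = 0.0499), a call that 5 of 8 omissions ended. That call was also lost with the authors' table, no filter on dim probes or no variance trend.

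KLF4, a factor of epithelial differentiation and pluripotency, was measured in the DHT set by 1 of its 2 probes (ILMN_2137789), the other being detected on no array. It was not detected on the vehicle arrays of replicate 1 and read 5.20 and 7.05, 7.06 and 8.0, 4.65 and 6.15, and 7.03 and 7.08. The DHT titles were at least 2.27-fold higher in replicate 1 (adjusted p = 3.02e-06) and 1.92-fold higher in replicate 2 (0.94 ± 0.28, adjusted p = 0.015). On vehicle titles replicate 2 was at least 1.66-fold above replicate 1 (adjusted p = 9.92e-05). The replicate 2 difference between hormone titles was not called without the DHT parental array 2 (0.73, adjusted p = 0.205), without the vehicle siFoxA1 array 2 (0.75, adjusted p = 0.205) or with median scaling (0.73, adjusted p = 0.0599).

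With DEX both KLF4 probes separated by replicate number within each siRNA title. The probe of highest mean (ILMN_1779857) read 5.59 and 8.04, 5.95 and 8.27, 7.12 and 8.17, and 6.60 and 7.74. The other probe read 4.81 and 7.78, 4.97 and 7.99, 6.86 and 8.61, and 6.75 and 8.36, with the parental arrays of replicate 1 not detected. On parental titles replicate 2 was 5.21-fold above replicate 1 by the former (2.38 ± 0.24, adjusted p = 3.61e-07) and at least 4.80-fold by the latter (adjusted p = 5.2e-09). On siFoxA1 titles the differences were 1.10 ± 0.24 (adjusted p = 0.00255) and 1.68 ± 0.23 (adjusted p = 1.67e-05). The siFoxA1 titles were above the parental ones in replicate 1 by 1.09 ± 0.24 (adjusted p = 0.00204), or at least 2.27-fold by the other probe (adjusted p = 1.95e-06). In replicate 2 the probes differed in sign, at -0.20 ± 0.24 (adjusted p = 0.589) and 0.60 ± 0.23 (adjusted p = 0.0504), and neither was called. The interaction for the probe of highest mean was -1.28 ± 0.34 (adjusted p = 0.04), where 3.70% of probes were called. It was lost under 6 of 9 other settings, with -0.64 under no background correction (adjusted p = 0.0735), and in 5 of 8 single-array omissions. The size of the other probe's interaction is not measured, since its parental pair of replicate 1 was not detected. For the probe of highest mean, the replicate 1 call was lost without the vehicle parental array 1 (0.79, adjusted p = 0.0669) or the vehicle siFoxA1 array 1 (0.80, adjusted p = 0.0849). Its replicate difference on siFoxA1 titles was lost without the vehicle siFoxA1 array 2 (0.87, adjusted p = 0.0992) or the DEX siFoxA1 array 1 (0.81, adjusted p = 0.0974).

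KLF13, a widely expressed repressor and activator known from lymphocytes and heart, rose on a single pair of DHT-set arrays. It read 7.93 and 8.11, 9.08 and 7.98, 8.23 and 7.84, and 9.13 and 8.10, so the DHT titles of replicate 1 stood alone. They were 2.03-fold above the vehicle titles of replicate 1 (1.02 ± 0.19, adjusted p = 0.000239), and the DHT titles of replicate 2 were 2.09-fold below them (-1.06 ± 0.19, adjusted p = 0.000133). Vehicle titles differed between replicates by -0.11 ± 0.19 (adjusted p = 0.794). KLF6 and KLF9 were lowest on exactly this pair of arrays, and FKBP5 read 8.21 and 7.76 there. With DEX it read 9.49 and 9.65, 9.45 and 9.66, 9.01 and 9.30, and 9.09 and 9.08, slightly lower on siFoxA1 titles. The log2 difference was -0.42 ± 0.13 in replicate 1 (adjusted p = 0.0239) and -0.47 ± 0.13 in replicate 2 (adjusted p = 0.0106). All 4 single omissions within replicate 1 ended the former call (-0.50 to -0.34), and the latter was lost without the DEX parental array 2 (-0.44) or the DEX siFoxA1 array 2 (-0.35). Both were lost with no variance trend (adjusted p = 0.0817 and 0.0524), and the former also with no filter on dim probes (adjusted p = 0.0535). KLF10 was called in no comparison; its probe passed the filter only through the 3 replicate 2 arrays named above, so no difference between the replicate numbers is given.

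**Figure D4:**
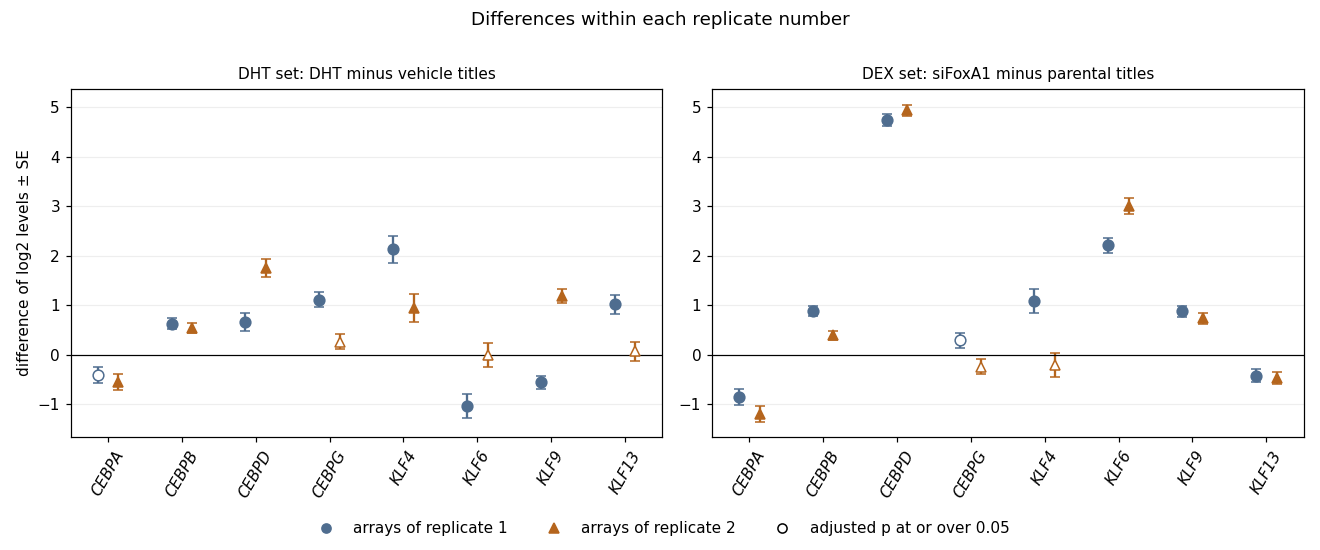
Difference of log2 levels with its standard error (y axis) for 8 genes (x axis), as DHT minus vehicle titles in the DHT set (left) and siFoxA1 minus parental titles in the DEX set (right), within replicate 1 (circles) and replicate 2 (triangles), open where the adjusted p is not below 0.05. CEBPD reaches 4.74 and 4.94 on the right, and KLF9 changes sign between the replicate numbers on the left. The values of KLF4 and KLF6 in replicate 1 on the left are fitted against a pair of arrays on which the probe was not detected.

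Counted over members, DHT minus vehicle titles within replicate 1 gave 5 higher (KLF13, CEBPB, CEBPG, CEBPD, KLF4) and 2 lower (KLF6, KLF9) of 8 tested, where 17.8% of all 13094 probes were called (8.80% higher, 8.97% lower). Within replicate 2 it gave 4 higher (CEBPB, CEBPD, KLF9, KLF4) and 1 lower (CEBPA), against 23.9% of probes (11.0% higher, 12.9% lower). Replicate 2 minus replicate 1 gave 4 higher and 0 lower on vehicle titles, where 13.0% of probes were called (6.97% higher, 6.01% lower). It gave 4 higher and 1 lower on DHT titles, where 19.2% were (9.08% higher, 10.1% lower). Medians over the 8 members were 0.64, 0.40, 0.61 and 0.51 in these 4 comparisons, beside -0.02 to -0.03 over all probes. The siFoxA1 title gave 0 member calls over the 8 DHT-set arrays, where limma called 0.107% of probes and 2 members had an unadjusted p under 0.05.

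With DEX, siFoxA1 minus parental titles gave 5 higher (CEBPB, CEBPD, KLF4, KLF6, KLF9) and 2 lower (CEBPA, KLF13) of 9 in replicate 1, where 27.8% of 18391 probes were called (12.5% higher, 15.3% lower). Replicate 2 gave 4 higher (CEBPB, CEBPD, KLF6, KLF9) and 2 lower (CEBPA, KLF13), against 30.9% (13.3% higher, 17.6% lower). Their medians were 0.88 and -0.20, beside -0.07 and -0.06 over all probes. Replicate 2 minus replicate 1 gave 1 higher (KLF4) on parental titles, where 21.2% of probes were called (10.1% higher, 11.1% lower). On siFoxA1 titles it gave 2 higher (KLF4, KLF6) and 2 lower (CEBPB, KLF9), where 20.1% were called (9.41% higher, 10.7% lower). The hormone title gave 0 member calls, 0 members with an unadjusted p under 0.05 and 0.00544% of probes. Comparisons that share a pair of arrays share its values, so their counts are not independent.

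Between the labelled groups, as the study planned, the DHT set gave 0 member calls by limma in each of 4 comparisons. DHT against vehicle titles had 0.626% of probes called on parental and 0.802% on siFoxA1 titles, with 0 and 2 members at an unadjusted p under 0.05, and siFoxA1 against parental titles had 0% and 0 members. The replicates of a group were far apart: CEBPD on DHT parental arrays was 9.82 ± 2.09 (SD, n = 2) against 8.79 ± 1.04 on vehicle parental arrays, a difference of 1.03 ± 1.26 (SE, adjusted p = 0.791). With the replicate number as a block, CEBPB was called on parental titles (0.60 ± 0.12, adjusted p = 0.0138; 7.44% of probes). On siFoxA1 titles the block called CEBPB (0.58 ± 0.12, adjusted p = 0.0146), CEBPD (1.37 ± 0.30, adjusted p = 0.0183) and KLF4 (1.66 ± 0.39, adjusted p = 0.0237), where 7.92% of probes were called. The fitted KLF4 size includes the vehicle siFoxA1 array of replicate 1, on which the probe was not detected.

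DEX against vehicle titles gave 0 member calls on parental and 0 on siFoxA1 titles by limma, with 0% of probes called, and 0 members had an unadjusted p under 0.05 with and without the block. On vehicle titles, siFoxA1 against parental groups called CEBPD (12.44 ± 0.01 against 7.49 ± 0.10, SD, n = 2, adjusted p = 7.62e-06), KLF6 (9.85 ± 0.38 against 7.39 ± 0.07, adjusted p = 0.00405) and CEBPA (8.61 ± 0.18 against 9.72 ± 0.36, adjusted p = 0.047), where 3.03% of probes were called. The CEBPA call was lost in each of 8 single-array omissions, with differences of -1.37 to -0.86. On DEX titles CEBPD (4.74 ± 0.17, adjusted p = 1.12e-05) and KLF6 (2.76 ± 0.28, adjusted p = 0.00233) were called, with 2.90% of probes. The block added CEBPB (0.73, adjusted p = 0.00472) and KLF9 (0.78, adjusted p = 0.00176) on vehicle titles, with 18.9% of probes called. On DEX titles it added CEBPB (0.56, adjusted p = 0.0216), KLF9 (0.85, adjusted p = 0.00102), CEBPA (-0.93, adjusted p = 0.00576) and KLF13 (-0.47, adjusted p = 0.049), with 18.3% of probes. The KLF4 probe that is not of highest mean was also called with the block, at 1.44 (adjusted p = 0.0111) and 1.07 (adjusted p = 0.0472). Both sizes include a parental array of replicate 1 on which that probe was not detected.

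The genes lie on 7 chromosomes in RefSeq's GRCh38.p14 annotation, which was used for names and promoters. KLF9 and KLF4 are on chromosome 9, KLF6 on 10, KLF5 on 13, KLF13 on 15, CEBPA and CEBPG on 19, CEBPB on 20, and CEBPD and KLF10 on 8. CEBPA (chr19:33299934-33302534) and CEBPG (chr19:33373709-33382686) are near neighbours, yet CEBPA fell on siFoxA1 titles of the DEX set while CEBPG was not called. RefSeq promoter windows, from 250 bases before to 50 after an annotated start, were matched for 8 of the 10 genes (11 windows). CEBPD and KLF10 have none here. Windows of 3 genes that were called in both sets follow, 5′ to 3′ on the gene's strand: KLF6 (chr10:3785160-3785459, minus strand), CEBPA (chr19:33302485-33302784, minus strand) and the more downstream of the 2 starts of CEBPB (chr20:50190580-50190879, plus strand). The KLF6 window holds a forkhead match and no CACCC box, and the other 2 differ in their numbers of GC and CACCC boxes. Capitals mark the GC box GGGCGG and the CACCC box, which KLF and related SP factors read, and the forkhead letters TGTTTNC, on either strand.
KLF6: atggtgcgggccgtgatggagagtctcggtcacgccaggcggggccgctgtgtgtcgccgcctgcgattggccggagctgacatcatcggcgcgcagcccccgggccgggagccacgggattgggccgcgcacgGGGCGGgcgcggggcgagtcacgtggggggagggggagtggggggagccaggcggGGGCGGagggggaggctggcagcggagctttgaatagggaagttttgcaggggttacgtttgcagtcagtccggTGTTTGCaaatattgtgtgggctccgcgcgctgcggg
CEBPA: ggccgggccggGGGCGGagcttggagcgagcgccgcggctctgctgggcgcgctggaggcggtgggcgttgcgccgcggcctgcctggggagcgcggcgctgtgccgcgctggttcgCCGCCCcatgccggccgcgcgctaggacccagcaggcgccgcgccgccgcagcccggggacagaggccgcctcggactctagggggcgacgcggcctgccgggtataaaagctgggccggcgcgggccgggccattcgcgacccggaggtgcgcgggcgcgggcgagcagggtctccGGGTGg
CEBPB: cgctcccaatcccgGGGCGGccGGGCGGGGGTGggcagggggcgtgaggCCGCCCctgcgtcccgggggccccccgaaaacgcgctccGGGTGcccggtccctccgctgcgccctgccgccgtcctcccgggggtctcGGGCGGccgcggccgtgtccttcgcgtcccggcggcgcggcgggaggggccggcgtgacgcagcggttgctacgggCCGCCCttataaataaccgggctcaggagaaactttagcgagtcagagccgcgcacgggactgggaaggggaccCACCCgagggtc
The GC box was matched 2 times in the KLF6 window, 2 times in that of CEBPA and 5 times in that of CEBPB. In CEBPB 1 of the GC boxes runs directly into 1 of its 3 CACCC matches. The only forkhead match in the 11 windows was the 1 in KLF6, just downstream of the annotated start. The full steroid receptor site, AGAACA and TGTTCT with any 3 bases between them, was in none of the 11, and its AGAACA part, which 14.8% of promoters hold, was in the more upstream KLF5 window only. Of all 35116 windows of 300 bases, 45% hold the GC box, 59.9% the CACCC box, 18.0% the forkhead letters and 0.00285% the full receptor site. The 1 KLF9 window, at 32.7% G and C, held neither KLF-type motif, while the 3 windows shown ran from 70.7% to 80.7%. These matches are of letters only and say nothing on binding.

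Among 22 other C/EBP, KLF and SP genes, 9 were measured in each set. The shares of all probes called, given above for each comparison, apply to these counts too: 17.8% and 23.9% between hormone titles, and 27.8% and 30.9% between siRNA titles of the DEX set. With DHT 2 were higher and 0 lower by hormone title in replicate 1 (DDIT3 and SP3) and 2 higher and 0 lower in replicate 2 (DDIT3 and KLF15). DDIT3, the stress-induced C/EBP homologue that dimerizes with C/EBP proteins, read 10.71 on both DHT arrays of replicate 1 against 9.13 and 9.21 on the vehicle arrays (1.55 ± 0.15, adjusted p = 1.39e-08). KLF15, a further glucocorticoid-induced KLF, differed by replicate number on DHT titles (2.10 ± 0.22, adjusted p = 6.57e-08). With DEX, KLF15 was the 1 gene of the list that was higher on siFoxA1 titles in both replicates. It read 7.76 and 7.37, 7.40 and 7.37, 10.19 and 10.20, and 10.26 and 10.23, a difference of 2.65 ± 0.15 (adjusted p = 3.15e-11) and 2.85 ± 0.15 (adjusted p = 9.43e-12). CEBPZ, SP3 and SP6 were lower in replicate 2, at -0.35, -1.08 and -0.95.

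Of 13 C/EBP regulators and targets, 8 were measured in each set. LCN2, a secreted iron-carrier protein and C/EBP target, followed the hormone title in the DHT set and was not detected on the vehicle parental arrays: 5.88 and 5.99 on vehicle parental, 9.24 and 8.90 on DHT parental, 6.72 and 6.14 on vehicle siFoxA1 and 9.65 and 9.17 on DHT siFoxA1 arrays. The DHT titles were higher in replicates 1 (adjusted p = 1.49e-11) and 2 (adjusted p = 3.93e-11). The fitted differences of 3.15 and 2.97 rest on vehicle pairs in which 1 of 2 arrays detected the probe. With DEX, LCN2 followed the replicate number, at 2.70 ± 0.26 on parental titles (adjusted p = 2.23e-07) and at least 4.82-fold on siFoxA1 titles (adjusted p = 7.15e-07). It was detected on 5 of the 8 DEX-set arrays, so these sizes rest in part on signals near background. TRIB1, a pseudokinase that directs C/EBPα to degradation, was lower on the DHT, siFoxA1 or replicate 2 side in all 8 comparisons of pairs, by log2 differences of -0.88 to -1.25. The list had 4 higher and 1 lower, and 4 higher and 2 lower, between hormone titles of the DHT set in replicates 1 and 2, where 17.8% and 23.9% of all probes were called. Between siFoxA1 and parental titles of the DEX set it had 1 higher (NFIL3) and 1 lower (TRIB1), then 2 higher (SAA1, NFIL3) and 2 lower (TRIB1, TRIB2), where 27.8% and 30.9% of probes were called. The kept SAA1 probes were detected on only 3 and 2 of the 8 arrays. SAA1 may thus have passed the filter through the arrays where it is high, and its place in the count supports nothing. In the DHT set NFIL3, TRIB2 and ORM2 were likewise detected on only 5, 4 and 2 of the 8 arrays. For the same reason, any place of theirs in the DHT-set counts supports nothing.

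Of 12 KLF regulators and targets, 11 were measured in each set. CDKN1A, the p21 cell cycle inhibitor and a classical KLF4 and KLF6 target, was higher on DHT titles by 0.94 ± 0.13 (adjusted p = 4.02e-06) and 0.88 ± 0.13 (adjusted p = 7.33e-06). ODC1, a polyamine enzyme, was instead higher by replicate number in that set, by 1.87 ± 0.10 and 1.80 ± 0.10. Counts were 3 higher and 0 lower between hormone titles in replicate 1 (CCND1, YAP1, CDKN1A) and again 3 and 0 in replicate 2, and in the DEX set 3 higher (ODC1, CDKN1A, YAP1) and 2 lower (CCND1, CCNE1) between siRNA titles in replicate 1 and 2 higher (ODC1, WWP1) and 3 lower (HDAC1, HDAC2, CCNE1) in replicate 2. All probes were called at 17.8%, 23.9%, 27.8% and 30.9% in these comparisons. WWP1, a ubiquitin ligase known to act on KLF5, was higher by 0.91 ± 0.12 there (adjusted p = 5.79e-06).

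Immediate early genes are, like CEBPB and CEBPD, known for fast responses. All 12 listed were measured in the DEX set. There 4 were higher (FOS, DUSP1, ZFP36, JUN) and 1 lower (MYC) on siFoxA1 titles in replicate 1, and 5 and 1 in replicate 2, beside 27.8% and 30.9% of all probes. FOS was not detected on the 4 parental arrays and read 10.40, 10.91, 10.12 and 11.09 on siFoxA1 titles, at least 24.9-fold higher in replicate 1 and at least 38.1-fold higher in replicate 2. It passed the filter only through the arrays where it is high, so it had to differ and its place in both counts supports nothing. DUSP1 differed by 3.91 ± 0.10 and 4.17 ± 0.10. With DHT, FOS was detected on no array and 9 of the list were measured. Between hormone titles 2 were higher and 2 lower in replicate 1, and 3 higher and 2 lower in replicate 2, beside 17.8% and 23.9% of all probes.

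For members called in any comparison of pairs in each set, the genes most like them over the 16 arrays were sought. CEBPG, not called with DEX, was therefore left out, as were KLF5 and KLF10. The measure was the root mean square difference of log2 levels after centring each probe on its set mean, among 8795 genes measured in both sets. CEBPD was nearest to ERRFI1 (0.53), KCNMA1 (0.53) and CCN1 (0.54), where CEBPD's own root mean square deviation was 1.97. KLF6 was nearest to EGFR (0.34), NOTCH2NLA (0.37) and CHKA (0.38), with its own at 1.06. KLF4 was nearest to BTG1 (0.38), CRIP2 (0.39) and TSC22D1 (0.43), with its own at 1.01. KLF9 was nearest to FAM8A1 (0.22), WDR41 (0.22) and TACC1 (0.23), with its own at 0.52. The values for CEBPB (SLC2A1, 0.14, against its own 0.39), CEBPA (SH2D4A, 0.16, against 0.44) and KLF13 (TLCD1, 0.19, against 0.38) were smaller, as were these genes' own deviations.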

How the data were processed

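RNA from LNCaP-1F5 cultures was read on 16 Illumina bead arrays, 8 of version 3 (DHT set) and 8 of version 4 (DEX set). Groups and replicate numbers came from the sample titles. Per the file headers, the deposited scanner tables hold the mean bead signal as intensity on the linear scale, with no background removed and no normalization, and a detection p-value per probe. The authors also deposited a table of processed intensity per set, whose values are background-subtracted and quantile normalized as far as the values show; its method is not given in the sources used here. BeadStudio is named in the submitters' processing notes. Its columns could be set against the scanner columns directly, and the scanner rows, which carry addresses, were joined to probe identifiers by their ranks over the 8 arrays (48794 and 47231 joined 1 to 1). An identifier found in both sets had 1 address in both for 96.1% of 39417. Gene symbols came from the platform annotation: 1 symbol for 28090 and 30113 probes, several for 13 and 8, none for 20691 and 17110. No gene was named from a probe with several.

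Signals were background-corrected with limma's neqc method from the detection p-values (offset 16), quantile normalized within a set and put on the log2 scale. Kept for testing were the 13094 and 18391 probes detected (p under 0.01) on 2 or more arrays of a set, and the kept probe of highest mean stands for a gene. limma 3.58.1 in R 4.3.3 fitted 4 group means per set with a variance trend, either over the labelled groups (4 residual degrees of freedom) or over the 4 pairs of arrays sharing a title and a replicate number, with the remaining title as an additive term (3 residual degrees of freedom). Tests were two-sided, adjusted by Benjamini and Hochberg over all kept probes of a comparison and called at an adjusted p under 0.05. Where the probe was not detected on either array of a pair, the fold is a lower bound, taken per array against the higher of the lowest detected level and the probe's own. The fit and the join were tested on simulated data.

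The members, the gene lists, the named genes and the pairs of arrays were chosen with earlier results of these data known. Named were all members, and of each other list at most the 6 genes with the largest moderated statistic. The design text calls the replicates biological duplicates; p-values measure the spread between these arrays only. Deviations from the group means correlated by 0.41 to 0.71 (DHT set) and 0.49 to 0.68 (DEX set) between same-numbered arrays over 6 pairs of groups. Same-numbered arrays thus deviate together, which does not tell what the replicate number stands for. With 2 arrays a side the number of arrays limits the precision. Each set was run on 1 chip. Alternatives tried were another offset, no background correction, median scaling, the authors' table, stricter and no filters on dim probes, 1 probe a gene, no variance trend, the additive term left out (for its own test, a model of the 3 titles), the replicate block and each array left out.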

Additional observations from a re-analysis of the deposited data

Results flagged for a closer look

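The difference between hormone titles was itself different in the 2 replicate numbers of the DHT set for 4 genes, by the interaction term of the limma fit (6.17% of probes were called). For KLF9 the interaction was 1.76 ± 0.20 on the log2 scale (adjusted p = 1.17e-06), a decrease in replicate 1 and an increase in replicate 2. For CEBPD it was 1.09 ± 0.25 (adjusted p = 0.00646), both replicates rising but the latter more. For KLF13 it was -0.96 ± 0.27 (adjusted p = 0.028) and for CEBPG -0.86 ± 0.21 (adjusted p = 0.0107), where the increase was seen in replicate 1. The CEBPD, CEBPG and KLF13 interactions were lost in 4, 5 and 6 of the 8 single-array omissions.

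In the DEX set KLF4 had an interaction of replicate number and siFoxA1 title by its probe of highest mean, -1.28 ± 0.34 (adjusted p = 0.04), where 3.70% of probes were called. The siFoxA1 titles were higher in replicate 1, and in replicate 2 no difference was called. The interaction was lost in 5 of 8 omissions and under 6 of 9 other settings, among them no background correction (-0.64, adjusted p = 0.0735) and median scaling (-1.25, adjusted p = 0.0553). The other KLF4 probe was fitted at -1.32, but its parental pair of replicate 1 was not detected, so that value has no measured size and adds no support.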

How the results depend on the processing

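No call reversed. Of 49 member calls, 30 were kept under every setting and omission tried, 33 under every setting and 31 under every omission. With the replicate block the DHT-set hormone comparisons of labelled groups gave 1 member call on parental and 3 on siFoxA1 titles instead of 0 each, and the DEX-set siFoxA1 comparisons gave 5 instead of 3 on vehicle and 6 instead of 2 on DEX titles. The DHT-set interaction gave 2 calls with no filter on dim probes and 1 with no variance trend instead of 4. On siFoxA1 titles of the DEX set, replicate 2 against 1 gave 2 calls with the authors' table, 1 with no filter and 1 with no variance trend instead of 4, and on parental titles 2 with median scaling instead of 1. The DEX-set interaction, 1 call, became 0 with offset 50, the authors' table, no filter or no variance trend, 2 with detection on all 8 arrays or without the additive term, and 3 with 1 probe a gene; with no background correction or median scaling it stayed at 1, but the called gene was KLF6 (0.65 and 0.90) and not KLF4. The cause was not tested. Leaving out single arrays gave 3 to 5 calls between hormone titles in replicate 2, 1 to 4 for the DHT-set interaction, 1 to 2 for replicates on parental titles, 0 to 4 for replicates on siFoxA1 titles, and 0 to 3 for the DEX-set interaction. Omissions also ended calls between hormone titles in replicate 1 and between siFoxA1 and parental titles of the DEX set, as given for each gene above. Median scaling moved the median of all probes between DHT and vehicle titles to -0.21 and -0.22, and between replicates on parental titles of the DEX set to -0.12. With it 22.1% and 21.6% of calls between hormone titles were higher, instead of 49.5% and 46.1%, and 29.3% and 34.2% of calls between replicates on parental and siFoxA1 titles of the DEX set, instead of 47.5% and 46.7%.

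The 2 arrays per side and signals near background limit the KLF4, KLF6 and KLF10 values most. Whether replicates are separate cultures is known only from the labels, and since arrays go against their titles, no difference here can be assigned to a hormone or to the siRNA.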
